A study of Homo sapiens with 6 samples.

Results

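The keratin family was compared between parental NCI-H1975 cells and a drug-resistant clone of that line. The members were all 36 probe sets, of 22215 tested, whose only gene symbol in the platform's annotation was KRT followed by a number and at most 1 letter, and they stood for 32 of 11963 genes. Each gene was represented by the brightest of its probe sets on average, and only KRT4, KRT7 and KRT10 had more than 1. NCI-H1975 is an established human lung adenocarcinoma line with a mutated EGFR gene. The parental group held 3 samples of the WZ4002-sensitive cells. The WZR6 group held 3 samples of a clone isolated from cells that had been kept in stepwise higher WZ4002, an inhibitor of mutant EGFR. Both groups were in exponential growth in serum-containing medium when collected, and no source used here says whether WZ4002 was then in the medium. WZR6 is a single clone, so what is particular to that clone and what goes with resistance cannot be told apart. The labels do not say that the samples of a group came from separate cultures, so p-values measure the spread between these samples, which may be technical.

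Keratins build the intermediate filaments of epithelial cells. An acidic type I chain pairs with a basic or neutral type II chain, and the filament network attaches to desmosomes between cells and to hemidesmosomes at the basement membrane. KRT8 and KRT18 form the basic pair of simple epithelia such as those of the lung, with KRT7 and KRT19 added in ducts and airways. KRT5 and KRT14 mark basal cells, other members mark stratified and wounded epithelia, and another large set builds hair and nail.

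All levels are log2 intensities, with n = 3 arrays per group, and a level of 7.38 was the median of all values on the arrays and 5.27 their lower quartile. The brightness of a probe set depends on its probes, so levels are compared between samples and not between genes. Log2 intensities of the arrays correlated across probe sets with r of 0.9978 to 0.9983 within a group and 0.9815 to 0.9826 across groups. Summed intensity of 5 lung epithelial markers ran from 11485 to 12687 in parental cells and from 769 to 786 in WZR6. Of these markers EPCAM, CDH1, MUC1 and NKX2-1 were called lower in WZR6 by the brightest probe set of each. A dimmer NKX2-1 probe set, at a mean of 6.76 over all arrays, differed by -0.19 and was not called. The surfactant gene SFTPB lay at 7.45 and 7.46 in the groups. Summed intensities of 5 leukocyte markers were 508 to 576 and 286 to 310. Those of 5 squamous or basal markers 3732 to 3801 and 951 to 1029, those of 6 fibroblast markers 2115 to 2297 and 1187 to 1207, and those of 5 endothelial markers 266 to 295 and 288 to 311. The members did not move alike. S100A2 and SOX2 were called lower while DSC3, DSG3 and PKP1 were not called. COL1A1 and COL1A2 were called lower, PDGFRB was called higher, and COL3A1, DCN and LUM were not called. Dimmer SOX2 probe sets, at -0.13 and 0.03, and a dimmer COL1A2 probe set, at -0.13, were not called. COL1A1 had dimmer probe sets at -1.27, called lower, and at 0.08, not called. Of the leukocyte markers ITGB2 and CD14 were called lower, and PTPRC, CD3D and LYZ were not called. CDH5 was the endothelial marker called by its brightest probe set, and it was higher. PECAM1 was not called by its brightest probe set, at -0.19, but was called lower on its dimmer ones, at -0.36 and -0.29. The part of these markers in the results was not tested. The samples are bulk cultures of a line or its clone, in which fewer expressing cells and less RNA per cell cannot be told apart.

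In the resistant clone KRT19, KRT15 and KRT7 fell, while the pair KRT8 and KRT18 changed less. KRT19 and KRT7 stayed bright as well, with WZR6 means of 11.13 and 11.63. KRT19 was 3.27-fold lower, KRT15 2.50-fold and KRT7 1.71-fold. KRT8 also fell, by a small amount, and KRT18 and KRT10 did not pass the test. The increases were of dim keratins, KRT16, KRT3, KRT23 and KRT24, and none reached 2-fold. In limma with Benjamini-Hochberg adjustment over all genes, 8 of 32 keratin genes were called at an adjusted p under 0.05, 4 lower and 4 higher, against 48.0% of all genes, 23.5% lower and 24.5% higher. Decreases of 2-fold or more were called for 2 of 32 keratins, against 409 of 11963 genes (3.42%). Increases of that size were called for 0 of 32, against 163 of 11963 (1.36%). With 32 genes, these counts are too small to set against such shares. The groups did not overlap for 9 keratins, or 28.1%, against 56.3% of all genes. The median difference of the keratins was -0.02 and that of all genes 0.02. The share of keratins called was thus below that of all genes, and calls went both ways. Most keratins lay below the median of all values, though, where calls were fewer for all genes. There 30.2% of all genes were called above the lower quartile and 11.3% below it. So the lower share says little about the family, and overlap was not compared at like levels.

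The fit over probe sets called 6 of 36, 4 lower and 2 higher, against 41.1% of all probe sets, 19.5% lower and 21.6% higher. KRT23 and KRT24 were not called there, at adjusted p-values of 0.0562 and 0.0600. Median centring of the arrays gave 3 keratin probe sets lower and 4 higher, and quantile normalization gave 5 keratin genes lower and 3 higher. Leaving out parental replicate 2 or WZR6 replicate 3 left 5 keratin genes called, with 2 higher in each case, and 2 were also higher without parental replicate 3.

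**Figure D1:**
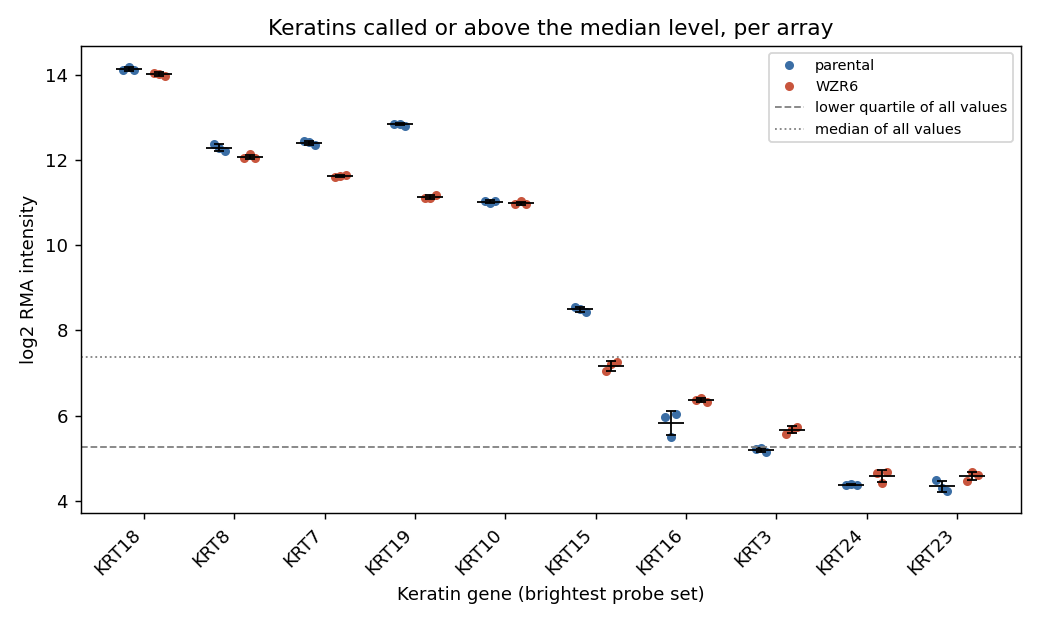
Log2 intensity per array (vertical axis) of the 10 keratins that were called or whose mean lay above the median of all values, with 3 parental and 3 WZR6 points each, means as bars and SD as error bars. The WZR6 points of KRT19, KRT15 and KRT7 lie clearly below the parental points, while those of KRT18 and KRT10 lie close to them, and KRT16, KRT3, KRT24 and KRT23 lie below the median of all values at 7.38.

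Among the simple epithelial keratins, 3 of 6 measured genes fell, 1 rose and 2 were not called. KRT19, a type I chain that lacks a tail domain, read 12.86, 12.84 and 12.81 in the parental arrays and 11.10, 11.10 and 11.17 in the WZR6 arrays. The groups lay far apart against spreads of 0.02 and 0.04 (SD). The difference was -1.71 ± 0.04 (SE, limma adjusted p = 6.07e-07), a 3.27-fold decrease (95% interval 3.04 to 3.51), and it ranked 169th of 11963 genes by size of decrease. By its mean over all 6 arrays KRT19 was at the 94.2nd percentile of all probe sets.

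KRT7, a type II chain of glandular and airway epithelium, read 12.44, 12.42 and 12.35 in parental cells and 11.61, 11.64 and 11.65 in WZR6. Every WZR6 array lay below every parental array. The difference was -0.77 ± 0.04 (SE, limma adjusted p = 1.82e-05), or 1.71-fold (1.59 to 1.84). The other KRT7 probe set was dim, with a mean of 4.54 in WZR6 and overlapping groups, and its difference of -0.17 was not called (adjusted p = 0.318). As the mean of both probe sets KRT7 differed by -0.47 and was still called.

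KRT8, the type II chain of the simple pair, read 12.39, 12.28 and 12.21 in parental cells and 12.06, 12.13 and 12.04 in WZR6. The groups did not overlap, but the lowest parental and the highest WZR6 array were close. The decrease was 1.16-fold (1.05 to 1.28), a difference of -0.22 ± 0.06 (SE, limma adjusted p = 0.0204). The call was lost without parental replicate 1 or 2 or without WZR6 replicate 1 or 3, with adjusted p-values between 0.0506 and 0.0649. The 40 measured non-keratin genes that flank the keratin cluster on chromosome 12, 20 on each side, had a median difference of -0.18. Of these 40 genes 20 were called lower and 1 higher, against 23.5% and 24.5% of all genes. Their part in this result was not tested.

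KRT18, the type I partner of KRT8, read 14.11, 14.18 and 14.12 in parental cells and 14.05, 14.03 and 13.98 in WZR6. The groups did not overlap, yet the difference of -0.12 ± 0.04 (SE) did not pass the test (limma adjusted p = 0.0732, interval -0.22 to -0.01). It was called in 6 of 16 alternatives, in each as a decrease, with adjusted p-values over all of them from 0.0017 to 0.196. KRT18 lies in the same cluster as KRT8, and its probe set was at the 99.0th percentile of level. KRT8 and KRT18 were each read by a single _x_at probe set, a type that can detect several transcripts.

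The remaining simple keratins were dim. KRT23, a type I keratin, read 4.48, 4.31 and 4.23 in parental cells and 4.47, 4.67 and 4.60 in WZR6, all below the lower quartile of all values and with overlapping groups. It was called at 0.24 ± 0.08 (SE, limma adjusted p = 0.0470), a call kept in 2 of 6 fits that left out an array (it was lost without parental replicate 2 or 3 or WZR6 replicate 2 or 3) and in 6 of 14 alternatives in all. KRT20, a keratin of intestinal epithelium, lay at 3.84 ± 0.07 (SD) and 3.89 ± 0.05, the 2.55th percentile, and differed by 0.05 ± 0.05 (SE).

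Of 14 keratins of basal, wounded and stratified epithelia, 1 fell, 3 rose and 10 were not called. KRT15, a type I keratin of basal and stem-like epithelial cells, was the only keratin between the median and the upper quartile. It read 8.56, 8.50 and 8.44 in parental cells and 7.04, 7.21 and 7.27 in WZR6. All WZR6 arrays lay under the median of all values, and all parental arrays above it. The difference was -1.32 ± 0.07 (SE, limma adjusted p = 1.24e-05), or 2.50-fold (2.23 to 2.81), and it was called in all 17 alternatives, at -1.12 to -1.37.

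KRT16, a type I keratin induced in wounded and hyperproliferative epidermis, read 5.97, 5.51 and 6.03 in parental cells and 6.36, 6.41 and 6.32 in WZR6. The WZR6 arrays lay close together and above the parental ones, of which replicate 2 was low. The difference was 0.53 ± 0.13 (SE, limma adjusted p = 0.0143), and without parental replicate 2 it was 0.37. KRT3, a type II keratin of the cornea, read 5.22, 5.23 and 5.13 in parental cells and 5.58, 5.68 and 5.73 in WZR6. It rose by 0.47 ± 0.06 (SE, limma adjusted p = 5.22e-04) and moved from just under the lower quartile of all values to above it. KRT24, a type I keratin, read 4.36, 4.39 and 4.37 and then 4.64, 4.43 and 4.69, and its call at 0.21 ± 0.07 (SE, adjusted p = 0.0492) was kept in 1 of 6 fits that left out an array, that without WZR6 replicate 2, and in 3 of 15 alternatives in all. All values of KRT16, KRT3, KRT23 and KRT24 lay below 7.38, the median of all values, so a floor set there leaves them no difference to test.

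KRT10, a type I keratin of differentiating epidermis, was the other bright keratin and did not change call in any of 16 alternatives. Its brightest probe set read 11.05, 10.99 and 11.03 in parental cells and 10.96, 11.03 and 10.97 in WZR6, and the groups overlapped. The difference was -0.03 ± 0.04 (SE, limma adjusted p = 0.575), with an interval of -0.14 to 0.07. Its other probe sets differed by -0.19 and 0.01 and were not called. The basal pair KRT5 and KRT14 had means of 5.97 and 4.29 over 6 arrays and differed by -0.04 ± 0.11 and 0.04 ± 0.11 (SE). The epidermal keratins KRT1 and KRT2 differed by -0.09 ± 0.12 and -0.10 ± 0.11 (SE), and KRT4 and KRT13 of mucosal epithelium by -0.16 ± 0.10 and -0.10 ± 0.07. KRT9 of palm and sole, KRT12 of the cornea and KRT76 of the oral mucosa differed by 0.06, 0.02 and -0.09. The 2nd KRT4 probe set differed by -0.10 and was not called either. KRT6A, KRT6B and KRT17 were not analysed here.

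Of 12 measured keratins of hair, nail and root sheath, 0 were called in limma, and 0 had an unadjusted p under 0.05. Of all genes 48.0% were called, but these 12 all lay below the median of all values. There 30.2% of all genes were called above the lower quartile and 11.3% below it, so the count says little about these keratins. They were KRT31, KRT32, KRT33A, KRT33B, KRT35, KRT36, KRT37 and KRT38 of type I and KRT75, KRT83, KRT84 and KRT85 of type II. Their differences ran from -0.16 for KRT75 to 0.22 for KRT32, with a median of 0.03. KRT75, a root sheath keratin, read lower in every WZR6 array than in any parental array, at means of 6.63 ± 0.15 (SD) and 6.47 ± 0.09, but did not pass the test (adjusted p = 0.180). KRT32 ranged from 5.27 to 5.55 in parental cells and from 5.43 to 5.93 in WZR6, so its groups overlapped.

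**Figure D2:**
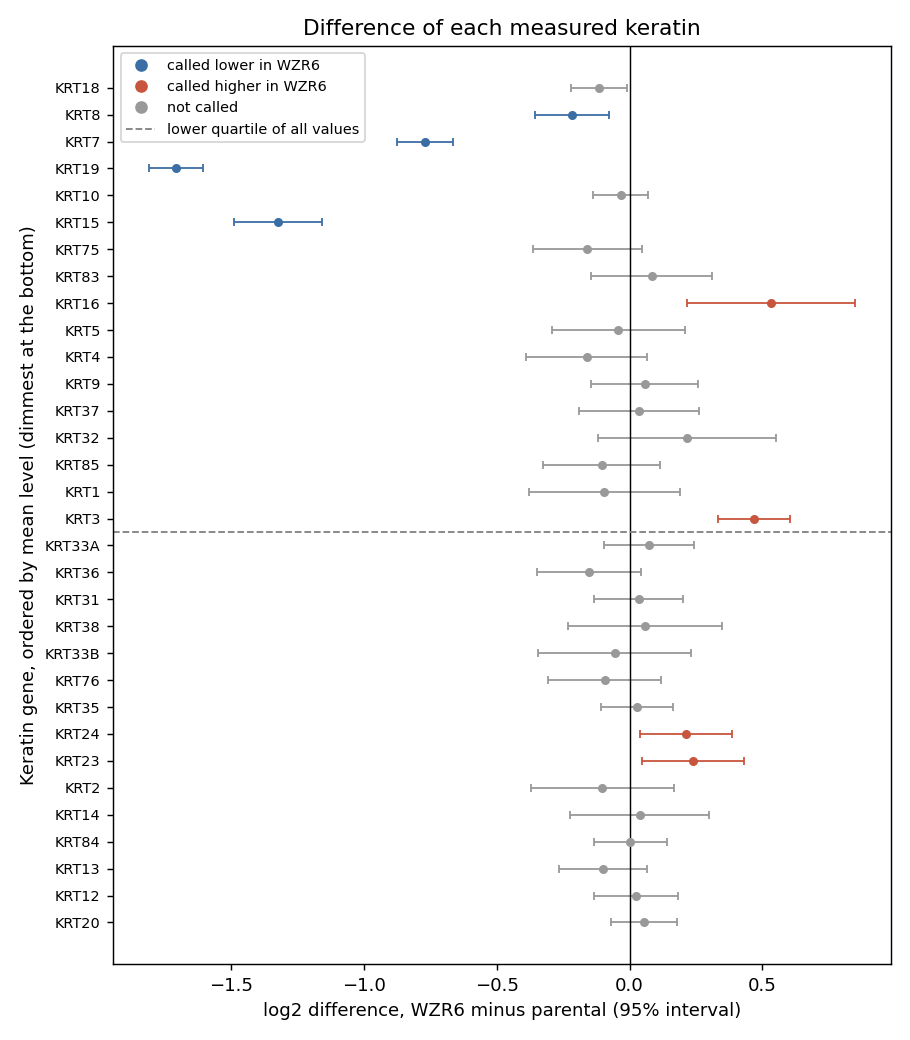
Log2 difference of WZR6 minus parental (horizontal axis) with 95% intervals for all 32 keratin genes, ordered by mean level with the dimmest at the bottom, and the dashed line at the lower quartile of all values. The decreases called are all among the 6 brightest keratins and reach -1.71 for KRT19, while the increases called are all among dimmer keratins and stay below 0.54.

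Calls were more frequent at higher levels for all genes. Of the 5 keratins above the upper quartile of all values, 9.61, 3 were called, or 60.0%, against 69.1% of all genes in that range. KRT15 alone lay between the median and the upper quartile, where 65.7% of all genes were called. Between the lower quartile and the median, 2 of 11 keratins were called, or 18.2%, against 30.2% of all genes. Below the lower quartile, 2 of 15 were called, or 13.3%, against 11.3%. Thus 26 of 32 keratins lay below the median of all values, where calls were fewer for genes at large. By chain type, 5 of 20 type I genes (2 lower, 3 higher) and 3 of 12 type II genes (2 lower, 1 higher) were called.

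**Figure D3:**
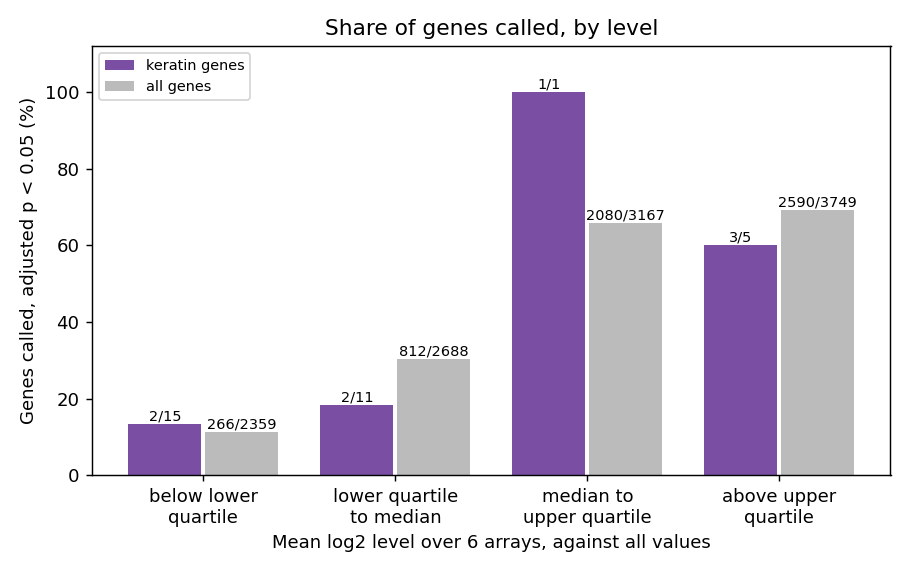
Percent of genes called in either direction (vertical axis, adjusted p under 0.05) in 4 ranges of mean log2 level, for keratins and for all genes, with called and measured genes above each bar. The share of all genes rises from 11.3% in the dimmest range to 69.1% in the brightest, and most keratins, 26 of 32, fall in the dimmest and the next range.

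The 32 genes lie in 2 clusters, 13 on chromosome 12 and 19 on chromosome 17, by the order of genes in the RefSeq table of GRCh38.p14. On chromosome 12, which holds the type II genes and the type I gene KRT18, the 40 flanking genes had the median of -0.18 given above. KRT7, at -0.77, fell further than that, KRT8 and KRT18 lay near it, and KRT3 rose against it. The corresponding 40 genes around the cluster on chromosome 17 had a median of -0.07. Among them 13 were called lower and 6 higher, against 23.5% and 24.5% of all genes. KRT19 and KRT15 fell and KRT16 rose within the chromosome 17 cluster.

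Within-array log2 differences between keratins show whether they changed unequally. Of 4 pairs compared, KRT19 minus KRT18 read -1.25, -1.34 and -1.31 in parental arrays and -2.95, -2.93 and -2.81 in WZR6, a shift of -1.59 (exact two-sided permutation p = 0.1, the smallest that 3 against 3 arrays can give; adjusted p = 0.133). KRT7 minus KRT18 shifted by -0.66 and KRT15 minus KRT19 by 0.38, each with the same exact permutation p of 0.1. KRT8 minus KRT18 read -1.72, -1.90 and -1.91 in parental arrays and -2.00, -1.90 and -1.94 in WZR6, so the groups overlapped, and its shift of -0.10 gave an exact permutation p of 0.2. In 3 pairs the groups did not overlap. This exact test cannot give a p under 0.1 here, so that it missed the threshold says nothing about any pair.

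The sequences just before the start sites of the keratins are shown for the 4 members that were called or bright and have an entry in the RefSeq promoter table (GRCh38.p14, minus strand in each case). Each run holds 250 bases before the start, written 5′ to 3′, and capitals mark TATAAA, the core of a TATA box, which places the transcription machinery at many tissue-specific genes. KRT3 is read from chr12:52796118-52796367, KRT24 from chr17:40703753-40704002, KRT10 from chr17:40822615-40822864 and KRT8 from chr12:52926470-52926719.
KRT3: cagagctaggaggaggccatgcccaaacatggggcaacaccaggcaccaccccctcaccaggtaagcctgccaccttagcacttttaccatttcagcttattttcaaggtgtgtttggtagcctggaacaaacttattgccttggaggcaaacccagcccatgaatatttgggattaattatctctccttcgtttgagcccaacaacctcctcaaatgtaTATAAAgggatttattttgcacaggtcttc
KRT24: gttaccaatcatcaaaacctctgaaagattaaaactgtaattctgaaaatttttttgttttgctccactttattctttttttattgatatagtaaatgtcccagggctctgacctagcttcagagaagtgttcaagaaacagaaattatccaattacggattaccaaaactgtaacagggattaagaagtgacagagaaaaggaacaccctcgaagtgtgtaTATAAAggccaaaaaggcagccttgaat
KRT10: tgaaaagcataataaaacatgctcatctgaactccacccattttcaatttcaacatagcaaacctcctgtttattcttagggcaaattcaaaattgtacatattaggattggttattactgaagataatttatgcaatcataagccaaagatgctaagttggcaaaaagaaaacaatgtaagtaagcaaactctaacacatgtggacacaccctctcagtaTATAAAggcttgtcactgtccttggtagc
KRT8: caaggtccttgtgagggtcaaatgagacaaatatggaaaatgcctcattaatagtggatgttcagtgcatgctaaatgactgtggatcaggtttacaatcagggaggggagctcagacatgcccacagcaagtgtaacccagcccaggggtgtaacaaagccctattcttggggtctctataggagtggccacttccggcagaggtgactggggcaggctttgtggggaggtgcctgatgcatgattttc
KRT3 and KRT24, called higher, and KRT10, not called, carried TATAAA beginning 30, 28 and 29 bases before the start. KRT8, called lower, had no TATAAA in this window, which belongs to the first start listed for it. Of 22 keratins with an entry, 10 held TATAAA on the gene's strand with its first base 20 to 40 bases before the start (45.5%), against 3.51% of 9563 genes on the array and 2.55% of 27305 genes in the table. GGGCGG, a GC box read on both strands, was in 4 of 22 (18.2%) against 60.6% of genes on the array, and CACCTG on both strands, an E-box form that ZEB and SNAI repressors can bind, was in 2 of 22 (9.09%) against 16.0%. The AP-1 motif TGANTCA, which reads alike on both strands, was in 0 of 22 against 4.67%. These matches describe the windows, and related keratins share sequence by descent. KRT7, KRT15, KRT16, KRT18, KRT19 and KRT23 had no entry, so these shares leave out the keratins that fell most.

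Other genes of keratin biology included larger differences than any keratin. Of 91 measured genes in 7 lists, 34 fell, 14 rose and 43 were not called, so 52.7% were called against 48.0% of all genes. By direction, 23.5% of all genes were called lower and 24.5% higher. The lists are short, and their counts were not tested against those shares. Among desmosome and keratin linker genes 8 of 17 fell, 1 rose and 8 were not called, with a median difference of -0.19. PKP2, a desmosomal plakophilin counted as not called at -0.17, had another probe set of similar level that was called lower at -1.25. PPL, the plakin periplakin, which ties keratins to the cell cortex, fell 7.73-fold from 9.65 ± 0.06 (SD) to 6.70 ± 0.27. DSC2, a desmosomal cadherin, differed by -2.17 on the log2 scale. DSP, the desmoplakin that anchors keratins, went from 12.49 ± 0.03 to 10.95 ± 0.07, a difference of -1.53. EPPK1, the keratin-bundling epiplakin, rose by 2.13 ± 0.07 (SE), on a probe set of a type that can detect several transcripts. Its 3 parental and 3 WZR6 arrays did not overlap.

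Of 6 hemidesmosome genes 3 fell, 2 rose and 1 was not called, by the brightest probe set of each. The shares of all genes, for this and the next lists, were 23.5% lower and 24.5% higher. DST, the dystonin that links keratins to hemidesmosomes, is counted among those that rose, at 0.17, but its probe sets differed in direction: 2 dimmer ones were called lower, at -1.28 and -0.63. The integrin chains ITGB4 and ITGA6 differed by -1.31 and -1.21, the laminin chain LAMB3 by -0.19 and CD151, a tetraspanin, by 0.21, all called. ITGB4 gave 0.08 and no call without _x_at and _s_at probe sets, and LAMB3 lost its call without parental replicate 1 (adjusted p = 0.0516) and without WZR6 replicate 1 (0.0605). Among epithelial and keratinocyte transcription factors 6 of 14 fell, 3 rose and 5 were not called. GRHL2 and OVOL2, which maintain epithelial gene expression, differed by -2.63 and -2.40, and KLF5 and EHF by -0.82 each. All were called lower, although EHF lay below the lower quartile. Without _x_at and _s_at probe sets OVOL2 differed by -0.18 and was not called. Of 7 repressors of epithelial genes 3 rose and 4 were not called. ZEB2 rose by 1.17, SNAI2 by 1.00 and ZEB1 by 0.52.

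Of 26 genes of the cornified envelope and of keratinocyte differentiation 10 fell, 1 rose and 15 were not called. The shares of all genes were again 23.5% lower and 24.5% higher. S100A9, a calcium-binding protein of stressed epithelium, differed by -3.44, SCEL (sciellin) by -3.01, the protease inhibitor CSTA by -2.29 and S100A7 by -1.57, all called lower. Of 6 keratin-binding and keratin-modifying genes 4 fell, 1 rose and 1 was not called. SFN, the stratifin that binds keratins, differed by -0.71, CASP6, a caspase that cleaves KRT18, by -0.60 and the ubiquitin ligase STUB1 by -0.33, all called lower. TRADD, an adaptor that binds KRT18, was called lower on both of its bright probe sets, at -0.23 and -0.34, and higher on a dim probe set at a level percentile of 5.41, at 0.26. Among other intermediate filament genes 3 of 16 fell, 3 rose and 10 were not called, with a median of 0.07. The neuronal INA and the lens gene BFSP1 differed by -0.86 and -0.39, and PRPH and SYNC by 0.35 each, all called. SYNC lost its call with cyclic loess (adjusted p = 0.0510) and without parental replicate 1 or 2 or WZR6 replicate 2 or 3 (adjusted p from 0.0682 to 0.0718). VIM, the vimentin of mesenchymal cells, was bright in both groups, at 14.74 ± 0.02 (SD) in parental cells and 14.82 ± 0.01 in WZR6. Its probe set was at the 99.6th percentile of level, and the groups did not overlap. VIM differed by 0.08 ± 0.04 (SE, limma adjusted p = 0.167) and was called higher in 3 of 16 alternatives. All values of SCEL, S100A7, DSC2, OVOL2, EHF, INA, BFSP1, SYNC and ZEB2 lay below 7.38, so the floor set there leaves them no difference to test. ITGB4, partly above it, differed by -0.20 with the floor (limma adjusted p = 0.221). GFAP, PNN and TCF4, not called by their brightest probe sets, each had another that was called, at -0.39, 0.25 and 0.38.

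**Figure D4:**
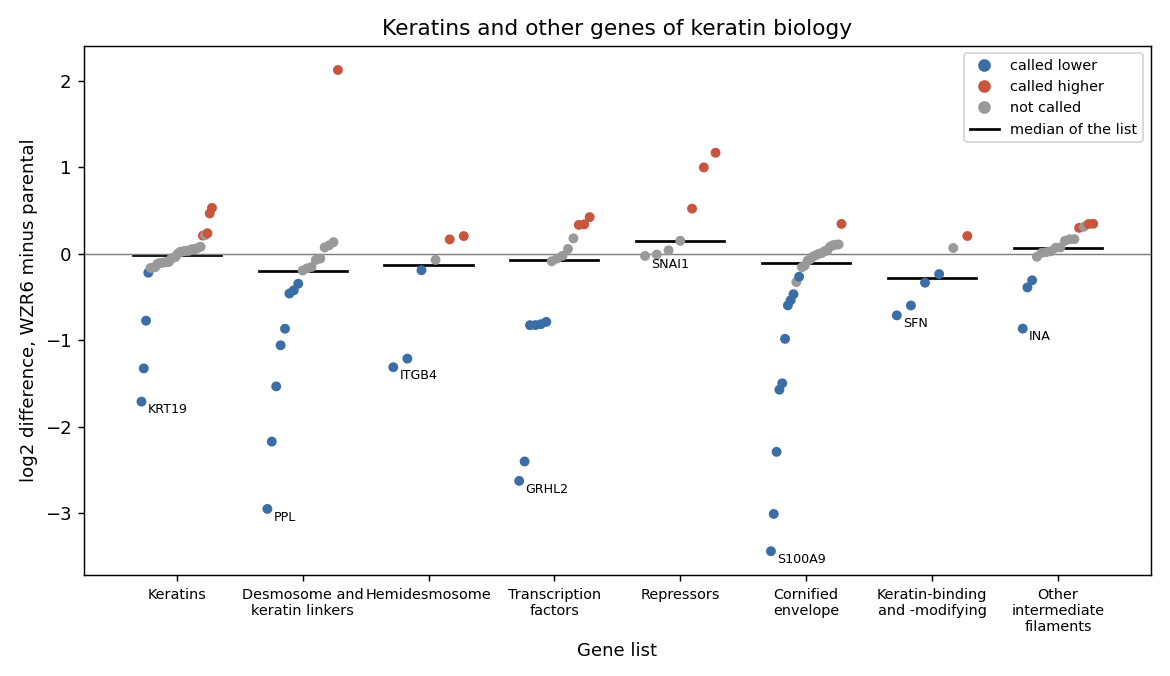
Log2 difference of WZR6 minus parental (vertical axis) for each keratin and for each measured gene of 7 lists of keratin biology, with points coloured by call and a bar at each list's median. Single genes of the desmosome, transcription factor and cornified envelope lists, such as PPL, GRHL2 and S100A9, lie below the lowest keratin, KRT19 at -1.71, while the other intermediate filament genes stay between -0.86 and 0.35.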

How the data were processed

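Total RNA on 6 arrays, 3 per group by title, was analysed. The deposited values are linear intensity, 1 for each probe set, computed by the authors with RMA according to the submitters' processing notes. No source used here states the version or settings of RMA. RMA subtracts background, quantile normalizes and summarizes probes, and the table holds no detection calls. Values were converted to log2 with no pseudocount. Of 22277 probe sets 62 controls were left out. Symbols came from the platform annotation, with 1 gene for 19064 probe sets, several for 1043 and none for 2108; all 32 keratins matched the RefSeq table by symbol. The groups were compared with limma 3.58.1 (lmFit, eBayes, two-sided) in R 4.3.3, over probe sets and over genes, with Benjamini-Hochberg adjustment over all features and calls under 0.05. The fit was run on simulated independent noise with known differences added, which checks the computation and not whether the samples were separate cultures. Figures used matplotlib 3.10.9. Named were all keratins called or above the median level, in each other list the called members that changed most (at most 4), and VIM; TP63 was to be named too and was not analysed here. Any other gene was picked with its values known. Members, lists and tests were chosen with earlier results of these data known. Alternatives were other normalizations, filters, a floor, a pseudocount of 32, trend and robust variance, a replicate block, probe set rules and leaving out each array. The number of arrays limits precision.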

Additional observations from a re-analysis of the deposited data

How the results depend on the processing

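Over the alternatives, 127 refits of the 10 named keratins kept their side of the threshold, 26 lost a call and 6 gained 1 (all KRT18), and none turned the direction of a call; a keratin not called in either fit was counted as kept whatever its sign. KRT19 and KRT15 were called in all 17 alternatives and KRT7 in all 16 that hold it. Against 4 keratin genes higher, 2 were higher with the filter above the lower quartile, the pseudocount, trend and robust variance, the replicate block and without _x_at and _s_at probe sets, and 0 with the filter above the median or the floor, which remove or flatten all 4 by construction. The filter above the median and the floor each left 5 keratin genes called. Without _x_at and _s_at probe sets, which removes KRT4, KRT7, KRT8, KRT10, KRT13, KRT18, KRT23, KRT33A and KRT35 (3 of them called, with KRT7 and KRT8 lower and KRT23 higher), 4 were called, 2 of them lower; all genes called numbered 3487, all genes called lower 1692, all genes called higher 1795, and all probe sets called 4245. Keratin probe sets called higher numbered 4 with median centring and 0 with the filter above the median or the floor, and 2 were lower without _x_at and _s_at probe sets. The keratin median was -0.095 over 17 genes above the lower quartile and -0.49 over 6 above the median level. Partner genes called lower numbered 18 with the filter above the median and 19 with the floor, and 8 were called higher without _x_at and _s_at probe sets. Leaving out 1 array gave 5 to 7 keratin genes called, 3 to 5 lower and 2 to 3 higher, 5 to 7 keratin probe sets, and a keratin median of -0.078 to 0.033 (lowest without parental replicate 3). ITGB4 turned to 0.078 without _x_at and _s_at probe sets. Filters and probe set rules leave fewer genes to test; the cause of the other changes was not tested. Deviations of arrays with the same replicate number correlated at -0.01, 0.12 and 0.23, so the numbers were not taken to pair the samples; with the replicate block 6 keratin genes were called, as KRT23 and KRT24 were lost. Shifts of the keratin pairs kept their direction in all alternatives run, which were added after seeing the data. The dim signal of 26 keratins limits their folds.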

Other observations

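The keratin-associated proteins, which fill the matrix between hair keratins, gave no call, as did the hair keratins. Of 6 measured KRTAP genes 0 were called in limma and 0 had an unadjusted p under 0.05, with differences from -0.13 for KRTAP5-9 to 0.18 for KRTAP4-7. Of all genes 48.0% were called, but 4 of the 6 lay below the lower quartile of all values, where 11.3% were, so the count says little about the KRTAP genes.

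Outside the family's definition were 4 probe sets annotated to a keratin pseudogene, or to a keratin name together with a second gene, and none of these 4 was called in limma. The probe set of the pseudogene KRT8P12 differed by 0.07 ± 0.06 (SE, limma adjusted p = 0.406), that of KRT19P2 by 0.10 ± 0.07 (adjusted p = 0.316), and a probe set shared by KRT34 and a second gene by 0.08 ± 0.13 (adjusted p = 0.698). The KRT8P12 probe set read 7.47, 7.65 and 7.53 in parental cells and 7.57, 7.68 and 7.62 in WZR6, so its groups overlapped.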
